A study of Mus musculus with 4 samples.

Results

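Expression of 40 cell cycle genes, among them 5 inhibitors of cyclin-dependent kinases (CDKs), was followed in the mouse cochleovestibular ganglion, which holds the young neurons of hearing and balance, on embryonic day 11.5. The genes were taken by symbol from a named list, and all 40 were found among the 25239 symbols of the 4 deposited gene tables. There was 1 library for each of 4 genotype labels: control, Isl1CKO (taken to mean Isl1 deleted conditionally), Pou4f1KO (taken to mean Pou4f1 deleted) and DKO (taken to mean both deleted). The alleles, the Cre driver, the strain and the number of embryos per library are not given in the sources used here, nor is whether the control carried a floxed allele or Cre. With 1 library per genotype there is no spread between replicates, so no test was made and no p-value is given, and each difference below describes these libraries. Levels are in TPM, transcripts scaled for gene length and library total, and differences are log2 ratios of (TPM + 1). Of all symbols, 15049 reached 1 TPM in at least 1 library and were compared, and all 40 members were among them.

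The cell cycle is driven by CDKs that act only when bound to a cyclin. D-type cyclins with Cdk4 or Cdk6 start the passage through G1, cyclin E with Cdk2 carries it into S phase, and cyclins A and B with Cdk1 carry it through G2 and mitosis. The inhibitors of the Cip/Kip family (Cdkn1a, Cdkn1b, Cdkn1c) and of the INK4 family (such as Cdkn2c and Cdkn2d) hold these kinases back, and several of them are raised when neuronal precursors leave the cycle. In the developing ganglion, dividing neuroblasts leave the otic epithelium and become postmitotic neurons, so the RNA of a dissected ganglion comes from cycling and non-cycling cells together. In such bulk RNA, fewer cells of a type and less RNA per cell cannot be told apart.

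Pou4f1 was at 146 TPM in control and 188, 16.6 and 14.6 TPM in Isl1CKO, Pou4f1KO and DKO, low where the labels say it was deleted. For Isl1 the levels went against the labels, with 450 TPM in control and 854, 340 and 579 TPM in Isl1CKO, Pou4f1KO and DKO. Gene-level TPM can include transcripts that lack a deleted exon, so Isl1CKO and DKO are used below as names of libraries, and directions drawn from them rest on their labels alone. The 14 neuron markers, which can show neurons but not this ganglion in particular, were all above 0 in every library. Tubb3, a neuronal tubulin, lay between 2636 and 3017 TPM, and Syt1, the lowest of the 14, between 20.6 and 28.5 TPM. Aligned sequence came to between 13.6 and 16.6 gigabases per library, with the lowest value in Isl1CKO. Mean read depth over the members ranged from 15.1, at Cdkn2c in Pou4f1KO, to 4854, at Cdk4 in control.

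The cell cycle genes stood below control in all 3 mutant libraries, by small amounts, and lowest in Pou4f1KO. The summed level of the 40 members was 5483 TPM in control and 5128, 4619 and 4930 TPM in Isl1CKO, Pou4f1KO and DKO. The median log2 ratio to control was −0.14 in Isl1CKO, −0.26 in Pou4f1KO and −0.19 in DKO, beside −0.02, 0.02 and −0.01 over all compared genes. These 3 ratios share the control library, so a value that is high by chance in control lowers all 3. Of the 40 members, 33 were below control in Isl1CKO, where 56.5% of all compared genes were. In Pou4f1KO 35 were below control (46.2% of all compared genes), and in DKO 35 were (51.6%).

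No member reached 2-fold, either way, in any of the 5 comparisons made. Of all compared genes, a 2-fold higher level was seen for 0.585% and a 2-fold lower level for 0.618% in Isl1CKO, for 0.977% and 1.73% in Pou4f1KO, and for 1.01% and 2.34% in DKO, each against control. In DKO against Isl1CKO these shares were 0.870% and 1.23%, and against Pou4f1KO 0.645% and 1.12%. Members were therefore counted past a smaller size, a log2 ratio of 0.32 (a ratio of 5 to 4, applied before rounding). In Pou4f1KO 14 of 40 members were lower than control by at least that much, against 9.86% of all compared genes, and 0 were higher, against 10.5%. In Isl1CKO 4 were lower (11.4% of all compared genes) and 1 was higher (6.11%). In DKO 4 were lower (11.6%) and 2 were higher (9.46%). The Isl1CKO and DKO counts of lower members are thus near the share of all genes, and the shift of these libraries lies in the median rather than in members past that size. With a pseudocount of 5 TPM in place of 1, the count of 14 in Pou4f1KO became 9. The libraries were also divided by the median ratio to control of the 14 neuron markers, which was 1.08 in Isl1CKO, 1.19 in Pou4f1KO and 1.13 in DKO. The counts of lower members then became 14, 33 and 24, and the median over all genes also moved, to −0.13, −0.22 and −0.17. In DKO this rests on the choice of the median, since the summed level of these markers was below control there (12720 against 13530 TPM). The members' median then lay below that of all genes by 0.12, 0.29 and 0.19 in the same order, where without this scaling it lay below by 0.11, 0.28 and 0.18.

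**Figure D1:**
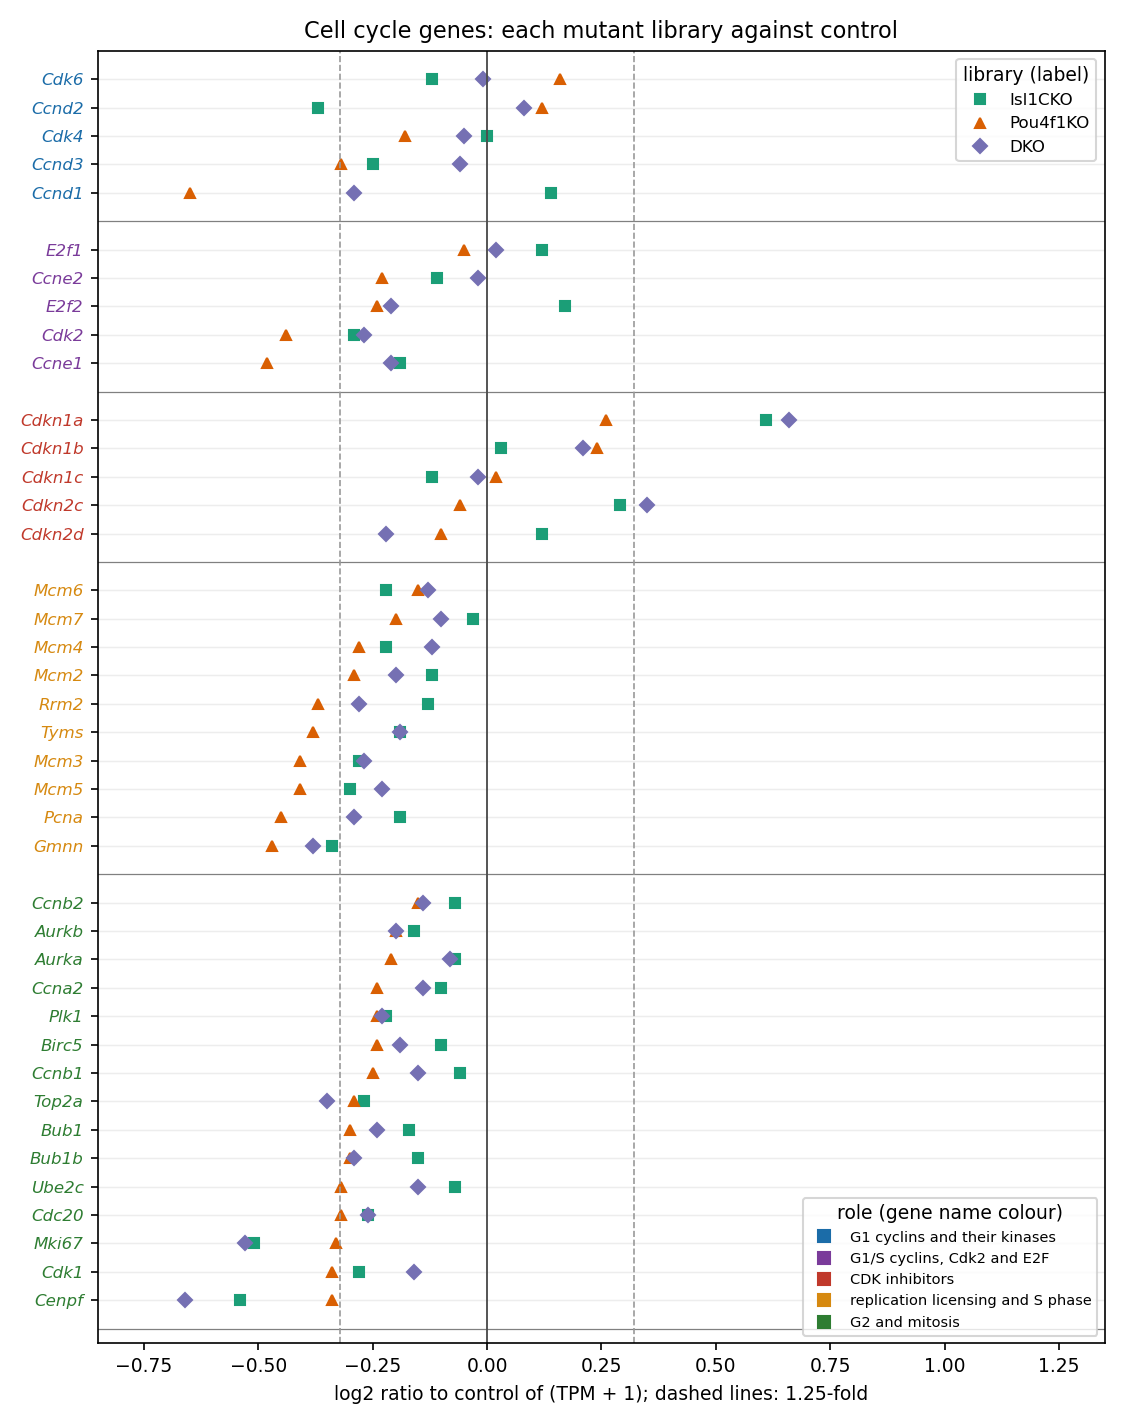
Log2 ratio to control of (TPM + 1) for each of the 40 members (rows, grouped by role) in the libraries labelled Isl1CKO, Pou4f1KO and DKO, with dashed lines at 0.32 on either side of 0. All 25 S phase and mitotic genes lie left of 0 in each library, whereas Cdkn1a lies to the right at 0.61, 0.26 and 0.66.

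**Figure D2:**
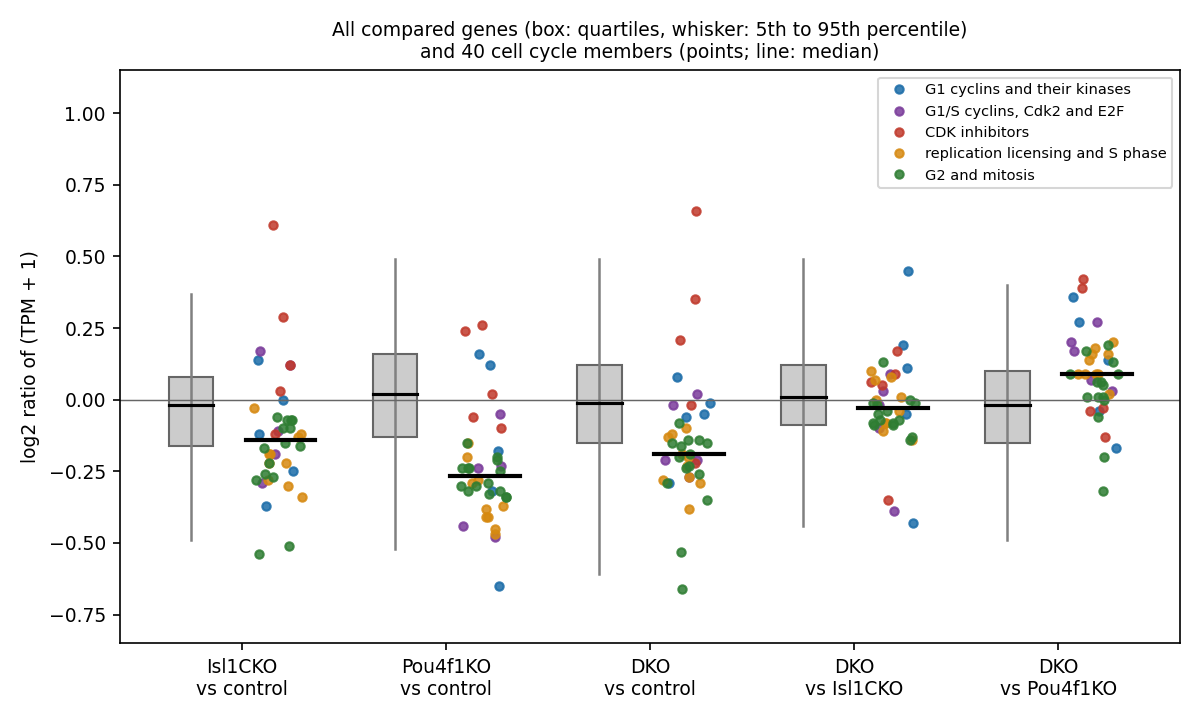
Log2 ratios of the 40 members (points, coloured by role, black line at their median) beside all 15049 compared genes (grey box from the lower to the upper quartile, whisker from the 5th to the 95th percentile) in 5 comparisons. The members' medians lie at −0.14, −0.26 and −0.19 against control, at −0.03 for DKO against Isl1CKO and at 0.09 for DKO against Pou4f1KO.

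Short promoter windows were searched for motifs known to mark cell cycle promoters, since many of the members stood lower together. The cell cycle genes homology region (CHR) is an element of mitotic promoters read by the DREAM and MuvB complexes, the CCAAT box is bound by NF-Y, and E2F sites act in G1/S genes. The letters searched on both strands were TTTGAA and TTCGAA for the CHR, CCAAT for the CCAAT box, and TTCCCGC and TTGGCGC for the E2F core, whose second form can overlap a CCAAT box. RefSeq windows on GRCm38.p6, of 250 bases before to 50 bases after the start site, were found for 32 of the 40 members, with 37 windows in all. No window was found for Ccnd1, Ccnd2, Ccne2, Cdkn1c, Mcm4, Gmnn, Ccna2 and Aurkb, so nothing below covers their promoters. A CHR stood in 11 of the 13 windows of G2 and mitosis genes (84.6%), against 19.2% of all 32851 windows of the table, and the same 11 held a CCAAT box too (7.52% of all windows hold both). An E2F core stood in 5 of the 9 windows of replication genes (55.6%), against 6.81% of all windows. None of the 4 windows of G1 cyclins and kinases and none of the 6 windows of CDK inhibitors held a CHR. A match describes these letters in this window and no bound site. The 14 members with a CHR match had median log2 ratios to control of −0.16 in Isl1CKO, −0.30 in Pou4f1KO and −0.22 in DKO. The 18 matched members with none in the window had medians of −0.12, −0.24 and −0.17. Members with the CHR ranged from −0.34 to −0.15 in Pou4f1KO and from −0.66 to −0.08 in DKO, and those without from −0.48 to 0.26 and from −0.29 to 0.66. The 10 members with an E2F core had medians of −0.25, −0.29 and −0.18, and the 22 without −0.13, −0.29 and −0.20. The split by CHR is in part a split by role, since the G1 cyclins and kinases and the CDK inhibitors that had a window all fall among those without. The upper ends of 0.26 and 0.66 are both Cdkn1a. Whether any of these splits differ was not tested.

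The G1 cyclins and their kinases did not share one direction. Ccnd1 (chromosome 7, 144929931 to 144939925, minus strand, mm10), the D-type cyclin with the highest level here, was at 463 TPM in control and 511, 295 and 379 TPM in Isl1CKO, Pou4f1KO and DKO. It was lowest in Pou4f1KO, at 63.6% of the control level (log2 ratio −0.65), and alone among the 40 members was over 1.5-fold lower there, where 4.21% of all compared genes were. DKO lay between Pou4f1KO and control, at −0.29. Ccnd2 was at 102 TPM in control and 78.3, 111 and 108 TPM in Isl1CKO, Pou4f1KO and DKO. The cyclin D2 gene was therefore low in Isl1CKO (−0.37) and near control in Pou4f1KO and DKO. Less the median of all genes of similar transcript length, its ratio in Isl1CKO was −0.29, short of 0.32 in size. Ccnd3 was at 65.0 TPM in control and 54.5, 51.7 and 62.5 TPM in Isl1CKO, Pou4f1KO and DKO, with log2 ratios of −0.25, −0.32 and −0.06. Each D-type cyclin thus had its own order of libraries.

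Cdk4, a kinase partner of the D-type cyclins, had the highest level of all members, at 821 TPM in control and 820, 723 and 794 TPM in Isl1CKO, Pou4f1KO and DKO, a spread of 1.14-fold from lowest to highest. Cdk6 was at 4.69, 4.24, 5.35 and 4.65 TPM in the same order, far below Cdk4 on this length-scaled unit. Its log2 ratios of −0.12, 0.16 and −0.01 rest on a mean read depth of 30.9 at most. A window of Ccnd3 on GRCm38.p6 (chr17:47593217-47593516, plus strand) is shown as a G1 promoter with a CCAAT box, in capitals, and no match to the other motifs.
Ccnd3: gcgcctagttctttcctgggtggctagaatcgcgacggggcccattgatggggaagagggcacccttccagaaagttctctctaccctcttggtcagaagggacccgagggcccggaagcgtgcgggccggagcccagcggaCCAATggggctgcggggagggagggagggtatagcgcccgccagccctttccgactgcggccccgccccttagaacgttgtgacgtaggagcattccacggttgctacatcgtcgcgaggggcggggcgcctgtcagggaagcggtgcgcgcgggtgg

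**Figure D3:**
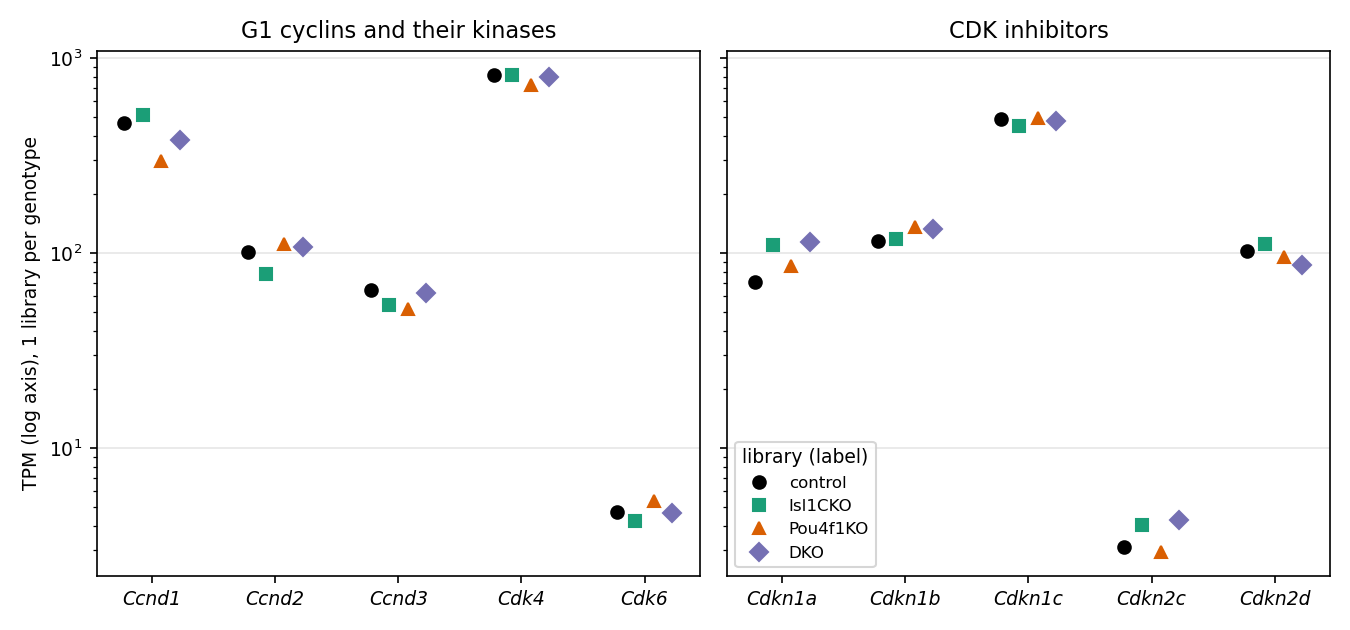
TPM on a log axis of the 5 G1 cyclins and kinases (left) and the 5 CDK inhibitors (right) in the 4 libraries, 1 point per library. Ccnd1 is lowest in Pou4f1KO (295 TPM) and Cdkn1a is lowest in control (71.5 TPM), while Cdk4 and Cdkn1c stay within 1.14-fold and 1.10-fold.

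The genes of the G1/S step were all lowest in Pou4f1KO, where 22.4% of all compared genes had their lowest level. Ccne1, the cyclin E1 gene, was at 26.5 TPM in control and 23.0, 18.7 and 22.8 TPM in Isl1CKO, Pou4f1KO and DKO. Its log2 ratio was −0.48 in Pou4f1KO and −0.19 and −0.21 in Isl1CKO and DKO. Ccne2 was at 15.4, 14.2, 13.0 and 15.2 TPM in the order control, Isl1CKO, Pou4f1KO and DKO. Cdk2, the kinase partner of cyclin E, was at 61.5 TPM in control and 49.99, 45.1 and 51.0 TPM in Isl1CKO, Pou4f1KO and DKO, with all 3 mutant libraries below control (−0.29, −0.44 and −0.27). The E2F factors, which switch on S phase genes, showed less: E2f1 was at 39.3, 42.8, 37.8 and 39.8 TPM in that order of libraries. E2f2 was at 8.46, 9.67, 7.01 and 7.17 TPM, higher in Isl1CKO (0.17) and lower in Pou4f1KO (−0.24) and DKO (−0.21). The Cdk2 window (chr10:128705002-128705301, minus strand) held 2 E2F cores, beginning at −140 and −10 from the start site, and a CCAAT box at −45, all in capitals.
Cdk2: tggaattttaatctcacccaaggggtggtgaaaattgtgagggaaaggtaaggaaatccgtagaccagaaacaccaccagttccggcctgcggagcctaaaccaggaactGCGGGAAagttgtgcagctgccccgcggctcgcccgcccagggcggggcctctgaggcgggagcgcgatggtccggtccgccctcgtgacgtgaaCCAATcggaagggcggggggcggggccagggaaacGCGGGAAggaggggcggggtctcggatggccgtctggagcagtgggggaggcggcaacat

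The CDK inhibitors did not share one direction, and Cdkn1a was the member farthest above control. Of the 5, 4 were above control in Isl1CKO (43.5% of all compared genes), 3 in Pou4f1KO (53.8%) and 3 in DKO (48.4%). Cdkn1a (p21; chromosome 17, 29090979 to 29100722, plus strand), a Cip/Kip inhibitor and a known p53 target, was at 71.5 TPM in control and 110, 85.9 and 113 TPM in Isl1CKO, Pou4f1KO and DKO. Both libraries with the Isl1 label were highest and control was lowest, with log2 ratios to control of 0.61, 0.26 and 0.66. Cdkn1a was the 1 member over 1.5-fold higher than control in Isl1CKO (2.15% of all compared genes) and in DKO (3.63%). Its mean read depth, which is not scaled between libraries, was 123 in control and 158, 145 and 192 in Isl1CKO, Pou4f1KO and DKO, which keeps the same order of libraries. Relative to TPM this depth is lower than in most genes.

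Cdkn1b (p27), which holds back Cdk2 in cells that leave the cycle, was at 115 TPM in control and 118, 136 and 133 TPM in Isl1CKO, Pou4f1KO and DKO. It was a little higher in both libraries with the Pou4f1 label (0.24 and 0.21) and level in Isl1CKO (0.03). Cdkn1c (p57), the inhibitor with the highest level, was at 485, 447, 491 and 477 TPM in the order control, Isl1CKO, Pou4f1KO and DKO, all within 1.10-fold. Cdkn2d (p19), an INK4 inhibitor of Cdk4 and Cdk6, was at 102 TPM in control and 111, 95.2 and 87.2 TPM in Isl1CKO, Pou4f1KO and DKO. Cdkn2c (p18) was low throughout, at 3.12, 4.04, 2.95 and 4.26 TPM, with the higher values in both libraries labelled for Isl1 and a log2 ratio of 0.35 in DKO. As a group the inhibitors summed to 777 TPM in control and 790, 811 and 815 TPM in Isl1CKO, Pou4f1KO and DKO. Their median log2 ratios were 0.12, 0.02 and 0.21, while the 35 other members had medians of −0.17, −0.29 and −0.20. With so few genes the inhibitor medians moved with the settings: they were 0.08, 0.13 and 0.09 with a 5 TPM filter, which leaves out Cdkn2c, and 0.01, −0.23 and 0.03 when scaled to the neuron markers, and that of Pou4f1KO was −0.02 with FPKM. Cdkn1c and Cdkn2d were below control in DKO, as most other members were. Of the INK4 genes outside the member list, Cdkn2a was at 0 TPM in control, Isl1CKO and DKO and at 0.156 TPM in Pou4f1KO, and Cdkn2b did not pass 1.01 TPM in any library. The Cdkn1b window (chr6:134920151-134920450, plus strand) is given as an inhibitor promoter with 3 CCAAT boxes in capitals and no CHR or E2F core.
Cdkn1b: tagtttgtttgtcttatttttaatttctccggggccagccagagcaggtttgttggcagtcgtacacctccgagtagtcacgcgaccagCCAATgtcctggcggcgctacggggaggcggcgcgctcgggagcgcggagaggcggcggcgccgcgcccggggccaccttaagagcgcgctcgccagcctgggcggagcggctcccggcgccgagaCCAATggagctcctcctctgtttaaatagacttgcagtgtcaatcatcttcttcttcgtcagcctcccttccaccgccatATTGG

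The replication genes were lower as a group. All 10 were below control in each mutant library, 9 of 10 were lowest in Pou4f1KO (22.4% of all compared genes) and all 10 were highest in control (27.5%). The medians were −0.20, −0.38 and −0.21 in Isl1CKO, Pou4f1KO and DKO, and the ratios ranged from −0.34 to −0.03, from −0.47 to −0.15 and from −0.38 to −0.10. Pcna, the sliding clamp of DNA polymerase, was at 361 TPM in control and 317, 263 and 294 TPM in Isl1CKO, Pou4f1KO and DKO (−0.19, −0.45 and −0.29). Rrm2, a subunit of the ribonucleotide reductase that makes deoxynucleotides, was at 159, 145, 123 and 131 TPM in the same order. Gmnn, which encodes the licensing inhibitor geminin, was at 87.2 TPM in control and 68.5, 62.6 and 66.6 TPM in Isl1CKO, Pou4f1KO and DKO, and was the 1 replication gene past 0.32 in all 3 comparisons (−0.34, −0.47 and −0.38). Tyms, the thymidylate synthase gene, was at 35.3, 30.9, 26.9 and 30.9 TPM.

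The subunits of the replicative helicase, Mcm2 to Mcm7, were lower by unequal amounts. Mcm7 was at 195 TPM in control and 192, 171 and 182 TPM in Isl1CKO, Pou4f1KO and DKO. Its row spans the microRNA genes Mir25, Mir93 and Mir106b on the same strand. Mcm6 was at 140, 120, 126 and 128 TPM in that order, the 1 helicase gene that was lowest in Isl1CKO. Mcm2 was at 126, 116, 102 and 109 TPM. Mcm3 and Mcm5 had log2 ratios of −0.28 and −0.30 in Isl1CKO, −0.41 and −0.41 in Pou4f1KO, and −0.27 and −0.23 in DKO, and Mcm4 had −0.22, −0.28 and −0.12. Within this 1 complex the ratios in Pou4f1KO thus ran from −0.15 to −0.41. A pair of replication promoters is shown with motifs in capitals. That of Mcm5 (chr8:75109259-75109558, plus strand) held 2 E2F cores and 3 CCAAT boxes, and that of Pcna (chr2:132253131-132253430, minus strand) 1 CCAAT box.
Mcm5: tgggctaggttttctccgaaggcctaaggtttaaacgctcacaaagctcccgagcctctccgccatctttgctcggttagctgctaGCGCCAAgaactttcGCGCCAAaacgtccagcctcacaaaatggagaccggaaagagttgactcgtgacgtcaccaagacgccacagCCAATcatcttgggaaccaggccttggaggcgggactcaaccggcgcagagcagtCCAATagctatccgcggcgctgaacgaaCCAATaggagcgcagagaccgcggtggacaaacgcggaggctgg
Pcna: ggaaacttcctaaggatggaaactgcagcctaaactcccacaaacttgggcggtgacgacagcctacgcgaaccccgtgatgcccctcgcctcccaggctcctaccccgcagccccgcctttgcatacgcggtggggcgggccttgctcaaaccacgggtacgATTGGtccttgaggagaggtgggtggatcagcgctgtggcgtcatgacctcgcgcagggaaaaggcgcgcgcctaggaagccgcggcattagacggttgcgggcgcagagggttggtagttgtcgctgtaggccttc

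All 15 G2 and mitosis genes were below control in each of the mutant libraries, and all 15 were highest in control (27.5% of all compared genes). Their summed level was 1714 TPM in control and 1508, 1409 and 1446 TPM in Isl1CKO, Pou4f1KO and DKO, that is 88.0%, 82.2% and 84.4% of control. The median log2 ratios were −0.16, −0.29 and −0.20. In Pou4f1KO the 15 ratios ran from −0.34 to −0.15. The spread was wider in Isl1CKO, from −0.54 to −0.06, and in DKO, from −0.66 to −0.08. Less the median of all genes of similar transcript length, Pou4f1KO was no longer narrower than Isl1CKO. The ratios then ran from −0.45 to −0.11 in Pou4f1KO, from −0.38 to −0.05 in Isl1CKO and from −0.57 to −0.08 in DKO.

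Ube2c, the ubiquitin-conjugating enzyme of the anaphase-promoting complex, was at 283 TPM in control and 270, 227 and 254 TPM in Isl1CKO, Pou4f1KO and DKO. Top2a, the topoisomerase that untangles sister chromatids, was at 264, 219, 216 and 207 TPM in the same order. Cdc20, an activator of the anaphase-promoting complex, was at 177 TPM in control and 147, 141 and 147 TPM in Isl1CKO, Pou4f1KO and DKO. Ccnb1, the cyclin B1 gene, was at 152, 146, 128 and 137 TPM, so that Isl1CKO lay nearest to control. In each of these 4 genes every mutant library was below control.

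The 2 lowest mitotic genes in Isl1CKO and DKO were Mki67 and Cenpf. Mki67, whose product Ki-67 coats mitotic chromosomes and is the usual marker of cycling cells, was at 123 TPM in control and 86.0, 97.3 and 84.7 TPM in Isl1CKO, Pou4f1KO and DKO. Its log2 ratios were −0.51, −0.33 and −0.53. Cenpf, a large kinetochore-associated protein gene, was at 47.0 TPM in control and 32.1, 36.9 and 29.3 TPM in Isl1CKO, Pou4f1KO and DKO. At −0.66 it was the 1 member over 1.5-fold lower than control in DKO (5.28% of all compared genes). Both were lower in Isl1CKO and DKO than in Pou4f1KO, whereas 12 of the 15 mitotic members were lowest in Pou4f1KO (22.4% of all compared genes). Both have long transcripts. Less the median of all genes of that length, neither was lower in Isl1CKO than in Pou4f1KO, and only Cenpf was still lower in DKO. Mki67 then had −0.35, −0.44 and −0.44 and Cenpf −0.38, −0.45 and −0.57.

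The remaining 9 mitotic genes had ratios to control from −0.28 to −0.07 in Isl1CKO, from −0.34 to −0.15 in Pou4f1KO and from −0.29 to −0.08 in DKO. Among them, Cdk1, the mitotic kinase, had −0.28, −0.34 and −0.16. Ccna2 (cyclin A2) had −0.10, −0.24 and −0.14, and Ccnb2 (cyclin B2) −0.07, −0.15 and −0.14. The mitotic kinase genes Aurka (−0.07, −0.21 and −0.08), Aurkb (−0.16, −0.20 and −0.20) and Plk1 (−0.22, −0.24 and −0.23) were close in Pou4f1KO, and in Isl1CKO and DKO Plk1 was the lowest of them. The spindle checkpoint genes Bub1 (−0.17, −0.30 and −0.24) and Bub1b (−0.15, −0.30 and −0.29) and Birc5, which encodes survivin of the chromosomal passenger complex (−0.10, −0.24 and −0.19), stood in the same range. Promoters of 3 mitotic members are shown for the CHR and CCAAT letters, in capitals, that recur in this role. The Ube2c window (chr2:164769679-164769978, plus strand) held 1 CHR, beginning at −29, and 6 CCAAT boxes. Those of Cdk1 (chr10:69352863-69353162, minus strand) and Mki67 (chr7:135716330-135716629, minus strand) each held 2 CHR matches, 3 CCAAT boxes and 1 E2F core.
Ube2c: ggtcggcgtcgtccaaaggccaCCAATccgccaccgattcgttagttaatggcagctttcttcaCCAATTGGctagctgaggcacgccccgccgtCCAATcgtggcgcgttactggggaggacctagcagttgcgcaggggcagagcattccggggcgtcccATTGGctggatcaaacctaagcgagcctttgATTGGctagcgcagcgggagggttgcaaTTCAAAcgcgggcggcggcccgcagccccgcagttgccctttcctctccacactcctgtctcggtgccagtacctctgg
Cdk1: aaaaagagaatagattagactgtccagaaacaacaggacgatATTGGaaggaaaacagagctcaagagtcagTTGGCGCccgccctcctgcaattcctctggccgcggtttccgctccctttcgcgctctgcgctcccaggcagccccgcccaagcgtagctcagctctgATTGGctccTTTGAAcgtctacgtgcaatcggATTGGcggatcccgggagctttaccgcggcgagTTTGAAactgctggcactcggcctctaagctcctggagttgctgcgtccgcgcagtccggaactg
Mki67: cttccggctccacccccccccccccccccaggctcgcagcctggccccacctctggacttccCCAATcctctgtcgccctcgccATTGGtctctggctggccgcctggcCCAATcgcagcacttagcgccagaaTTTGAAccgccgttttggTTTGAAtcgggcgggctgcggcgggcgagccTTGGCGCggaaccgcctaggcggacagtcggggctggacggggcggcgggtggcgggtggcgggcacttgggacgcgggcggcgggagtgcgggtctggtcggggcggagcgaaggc

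Of 85 cell cycle genes outside the 40 members, in 4 lists, 84 were compared, with median log2 ratios to control of −0.16 in Isl1CKO, −0.27 in Pou4f1KO and −0.21 in DKO. Lower by at least 0.32 were 7, 24 and 10 of the 84 in Isl1CKO, Pou4f1KO and DKO, against 11.4%, 9.86% and 11.6% of all compared genes, so the counts of Isl1CKO and DKO are near the background. In the same order 0, 1 (Cdkn2b) and 1 (Tfdp2) were higher, against 6.11%, 10.5% and 9.46% of all compared genes. Cdkn2b was at 0.467 TPM in control and was compared only because it reached 1.01 TPM in Pou4f1KO. Among the 25 genes of origin firing and DNA synthesis, with medians of −0.15, −0.30 and −0.20, Gins2, of the replicative helicase, had −0.42, −0.41 and −0.20. Mcm10, a replication initiation factor, had −0.24, −0.45 and −0.43, Pola1, the catalytic subunit of DNA polymerase alpha, −0.34, −0.29 and −0.44, and Tk1, a thymidine kinase, −0.31, −0.41 and −0.32. Dut, which removes dUTP, had −0.25, −0.35 and −0.40. The 30 spindle, kinetochore and cytokinesis genes had medians of −0.19, −0.28 and −0.22. Kif23, a kinesin of cytokinesis, had −0.28, −0.47 and −0.29. The kinetochore genes Cenpe (−0.47, −0.17 and −0.34) and Knl1 (−0.40, −0.27 and −0.39) were lower in Isl1CKO and DKO than in Pou4f1KO. Mki67 and Cenpf had that order only before transcript length was taken into account, which was not done for Cenpe and Knl1. Ndc80, of the outer kinetochore, had −0.27, −0.41 and −0.30, and the kinesin gene Kif20a −0.17, −0.38 and −0.22.

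Among 14 compared CDK regulators and checkpoint genes the medians were −0.15, −0.25 and −0.22, and Wee1, the kinase that holds Cdk1 inactive, had the ratio farthest from 0 in each library, at −0.39, −0.58 and −0.52. It was at 34.1 TPM in control and 25.8, 22.4 and 23.5 TPM in Isl1CKO, Pou4f1KO and DKO. Cdc25b, an activating phosphatase of Cdk1, had −0.31 and −0.38 in Isl1CKO and DKO but 0.02 in Pou4f1KO. The checkpoint kinase genes Chek1 (−0.15, −0.36 and −0.29) and Chek2 (−0.09, −0.37 and −0.22) and the CDK subunit gene Cks2 (−0.22, −0.33 and −0.25) were lowest in Pou4f1KO. The 15 factors of the RB and E2F network were nearest to control, with medians of −0.07, −0.13 and −0.11. Mybl2 (−0.36, −0.42 and −0.36), a transcription factor of the MuvB complex, and the repressor E2f7 (−0.33, −0.35 and −0.38) were the lowest of them. The repressor E2f8 had −0.06, −0.28 and −0.31, and Foxm1, an activator of mitotic genes, −0.16, −0.25 and −0.23. Tfdp2, an E2F partner, was higher in DKO (0.35). The retinoblastoma gene Rb1 had 0.11, 0.21 and 0.09.

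The difference tied to each label was next read with and without the other label, from 2 pairs of libraries that do not overlap. The Isl1 label went with lower levels against control and with slightly higher levels where Pou4f1 was labelled as deleted. The median of the 40 members was −0.14 for Isl1CKO against control and 0.09 for DKO against Pou4f1KO, beside −0.02 and −0.02 over all compared genes. In 27 of 40 members the first ratio was below 0 and the second above it, which held for 22.5% of all compared genes, and 6 were lower in both (33.9%). All 10 replication genes were among the 27, and 12 of the 15 mitotic genes. Cdkn1a was higher with the Isl1 label in both, at 0.61 and 0.39, as were Cdkn2c (0.29 and 0.42) and Ccnd1 (0.14 and 0.36). Cenpf (−0.54 and −0.32) and Mki67 (−0.51 and −0.20) were lower in both, but less the median of their transcript length class the second ratio was −0.10 for Cenpf and 0.02 for Mki67.

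The Pou4f1 label went with lower members against control, with a median of −0.26, and with a median of −0.03 for DKO against Isl1CKO. Lower in both were 24 of 40 members, against 26.5% of all compared genes. Ccnd1 was the lowest member in each, at −0.65 and −0.43, and Ccnd2 was higher in each, at 0.12 and 0.45. In DKO against Isl1CKO 3 members were lower by at least 0.32, Ccnd1, E2f2 (−0.39) and Cdkn2d (−0.35), against 7.54% of all compared genes, and 1 was higher, Ccnd2, against 9.74%. In DKO against Pou4f1KO 3 were higher, Ccnd1, Cdkn1a and Cdkn2c, against 7.20%, and 1 was lower, Cenpf, against 10.3%. The departure from additivity, which is the DKO ratio to control minus both single-label ratios, had a median of 0.22 over the members and −0.01 over all compared genes. It was above 0 in 34 of 40 members (47.7% of all compared genes). Both single-label ratios share the control library, so the control level enters the departure with a positive sign, and with no residual degrees of freedom it was not tested.

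**Figure D4:**
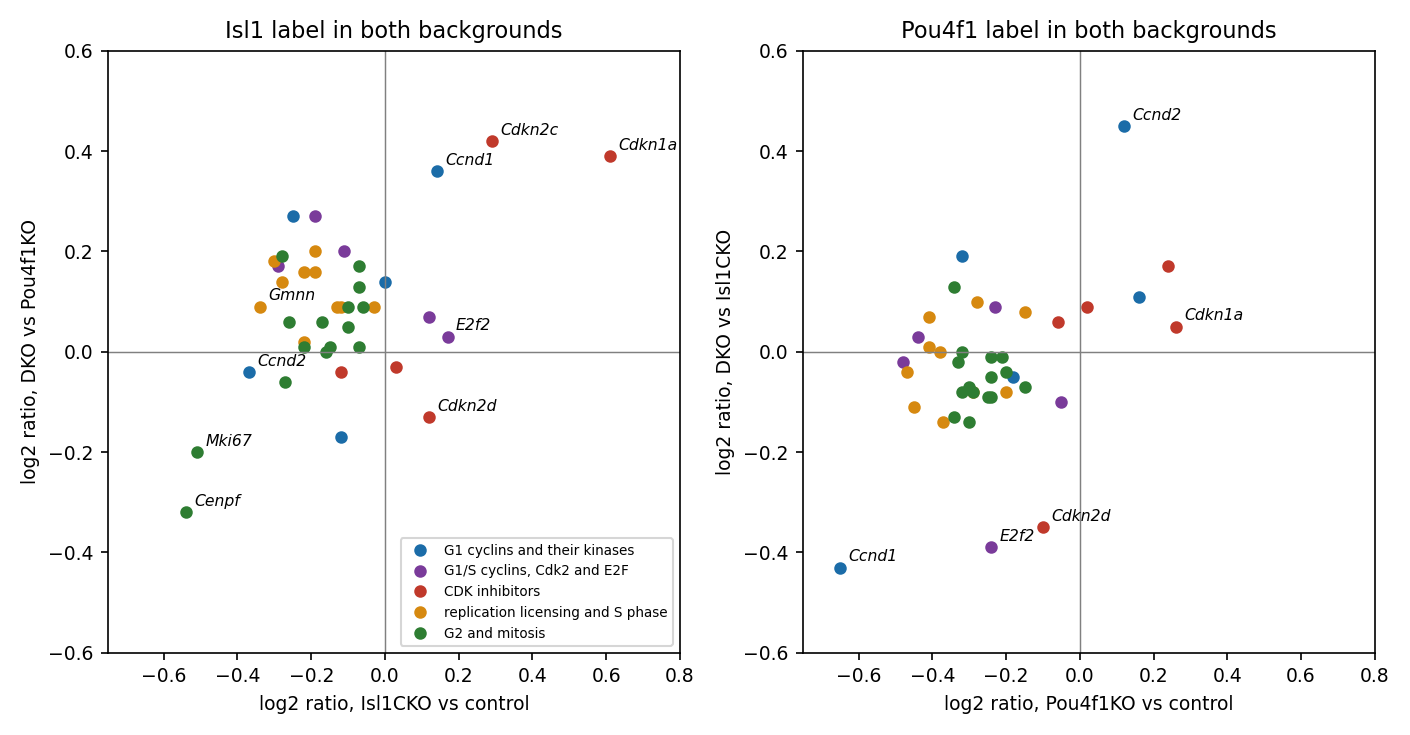
Log2 ratio of each member for a label against control (horizontal) and for the same label where the other gene was labelled as deleted too (vertical), for the Isl1 label (left) and the Pou4f1 label (right), coloured by role. On the left 27 of 40 points lie left of 0 and above 0, with Cdkn1a at 0.61 and 0.39 and Cenpf at −0.54 and −0.32, and on the right Ccnd1 lies lowest at −0.65 and −0.43.

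Summed levels of marker genes of other cell types around the ganglion differed between the same libraries. No marker of these lists was at 0 in any library. All 9 compared surface ectoderm and epithelium markers were below control in each mutant library, and the list summed to 368 TPM in control and 219, 67.8 and 77.0 TPM in Isl1CKO, Pou4f1KO and DKO. Of 12 otic epithelium markers 10 were below control in each mutant library, though not the same 10, with sums of 416, 265, 217 and 157 TPM in the same order. The 12 mesenchyme markers summed to 302, 206, 289 and 414 TPM and the 8 endothelial markers to 93.3, 67.7, 86.6 and 112 TPM, so both were lowest in Isl1CKO and highest in DKO. The 12 neural progenitor and neural tube markers summed to 566 TPM in control and 515, 726 and 533 TPM in Isl1CKO, Pou4f1KO and DKO. Their sum was thus highest in the library where the cell cycle members were lowest, with 11 of 12 above control there (53.8% of all compared genes). That count is in part fixed by the filter. Sox1, Pax6, Olig3 and Msx3 reached 1 TPM only in Pou4f1KO, so they could only be counted as above control there. Sox2, a progenitor factor, was at 72.2, 49.99, 64.2 and 31.6 TPM in that order of libraries.

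Erythroid markers, of cells that can also divide in the embryo, summed to 7574 TPM in control and 6834, 6195 and 7359 TPM in Isl1CKO, Pou4f1KO and DKO, the same order of libraries as the 40 members except for DKO and Isl1CKO. Among them Hbb-bs was at 69.2 TPM in control and 79.9, 0.392 and 93.5 TPM in Isl1CKO, Pou4f1KO and DKO. Its log2 ratio of −5.66 in Pou4f1KO was the lowest of all compared genes there, while Hbb-bt had 0.07. The cause was not tested. The 8 glial and neural crest markers summed to 607, 562, 702 and 602 TPM and the 8 macrophage markers to 45.2, 34.4, 32.5 and 39.6 TPM. The glial list shares Fabp7, at 240.1, 228.1, 300.5 and 235.2 TPM, with the neural progenitor list, so these sums are not separate. The 14 neuron markers, of non-dividing cells, summed to 13530, 14520, 14710 and 12720 TPM in the same order, so that DKO was below control by this sum. Their median log2 ratios were 0.11, 0.25 and 0.18, with 10, 10 and 9 of 14 above control, where 43.5%, 53.8% and 48.4% of all compared genes were. The part of these cell mixtures in the cell cycle ratios was not tested.

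Ratios to control also moved with the length of the transcript, taken as the longest in GENCODE M21. Over the 805 compared genes of 8 kb and over the median log2 ratio was −0.16, 0.11 and −0.09 in Isl1CKO, Pou4f1KO and DKO, and over 4146 genes under 2 kb it was −0.01, −0.04 and 0.00. Mki67, of 10.1 kb, and Cenpf, of 11.1 kb, are among the 3 members of 8 kb and over, with Cdk6. Less the median of their length class, both were lower in Pou4f1KO than in Isl1CKO, as given with their values. For DKO against Pou4f1KO, genes of that length had a median of −0.22. The part of transcript length or of RNA quality in these ratios was not tested further. The 23 members of 2 to 4 kb, where all compared genes had medians of −0.01, 0.01 and 0.01, had medians of −0.12, −0.29 and −0.19. For all 40 members the medians on the length-centred scale were −0.13, −0.29 and −0.19.

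**Figure D5:**
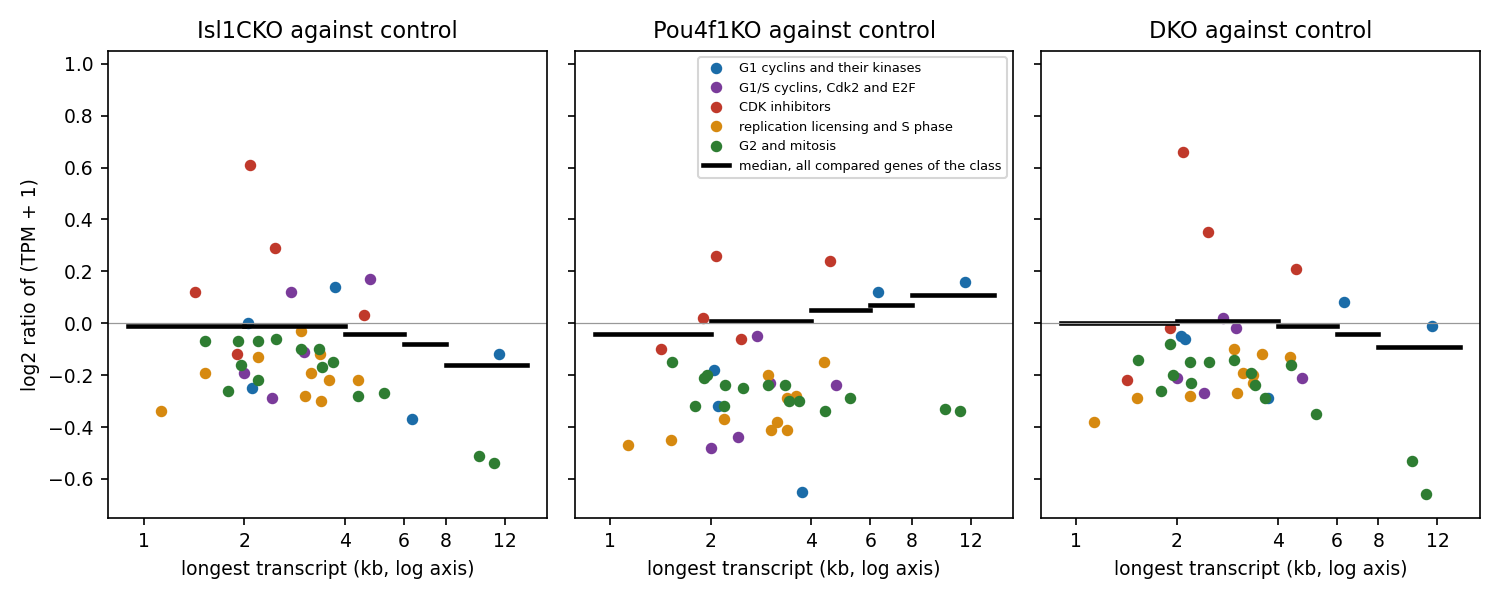
Log2 ratio to control of (TPM + 1) for each member against the length of its longest transcript (kb, log axis) in Isl1CKO, Pou4f1KO and DKO, coloured by role, with black bars at the median of all compared genes of each length class. In Isl1CKO and DKO the bar at 8 kb and over lies at −0.16 and −0.09 and the points of Mki67 and Cenpf lie lowest, while in Pou4f1KO that bar lies at 0.11.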

How the data were processed

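Each library came as a table of gene abundances. StringTie, HISAT2, Trimmomatic, SAMtools and FastQC are named, with build mm10, in the submitters' processing notes. Their order, versions, settings and annotation are not given there. The authors deposited TPM (transcripts scaled to a fixed total in each table), FPKM, which differed from TPM by a constant factor per library, and coverage, the unscaled mean read depth, per the file headers. No read counts were used, so no count test was run.

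Rows sharing a symbol were summed, and each of the 40 members stood on 1 row per table. Genes at 1 TPM in some library were compared by the log2 ratio of (TPM + 1), which understates differences of low genes. Gigabases were read from the median ratio of coverage to FPKM. Transcript lengths came from the GENCODE M21 basic set. Members overlapping genes on the opposite strand (Ccnd1, Ccnd2, Ccnd3, Ccne2, Ccna2 and Cdc20) rest on the directional library kit named in the labels; whether counting used strand is not given.

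Members and lists were chosen with earlier results of these data known. All 4 values are given for CDK inhibitors, G1 cyclins and kinases, the 5 members with the highest mean TPM in each other role, and members past 1.5-fold from control; of each other pathway list, up to 3 genes per comparison with the largest ratios and 5 TPM in the higher library. Values given for Gmnn, Tyms, Sox2 and Wee1, the ratios of Rb1, the promoters of Mcm5, Cdk1 and Mki67, and the length-class medians were chosen after values were seen. Ratio code was tested on simulated data. Python 3.11.15, pandas 2.3.3 and numpy 2.4.6 were used.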

Additional observations from a re-analysis of the deposited data

Results flagged for a closer look

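A difference was listed here where the Isl1 or Pou4f1 label went with a median below 0 in one background and above 0 in the other, both at least 0.05 in size. With 1 library per genotype these differences were not tested, and each ratio is a single pair of libraries. For the Isl1 label, the median log2 ratio of all 40 members was −0.14 for Isl1CKO against control and 0.09 for DKO against Pou4f1KO. The G1 cyclins and their kinases had −0.12 and 0.14, and the G1/S cyclins with Cdk2 and the E2F genes −0.11 and 0.17. Replication and S phase genes had −0.20 and 0.12, and G2 and mitosis genes −0.16 and 0.05. The CDK inhibitors were not among them. For the Pou4f1 label, the G1 cyclins and their kinases had −0.18 for Pou4f1KO against control and 0.11 for DKO against Isl1CKO, with Ccnd1, at −0.65 and −0.43, lower in both. No single member was past 0.32 in opposite directions.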

How the results depend on the processing

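No paired analysis was possible because each genotype has 1 library, and for the same reason no library could be left out in turn. Other settings were run for the median log2 ratio of the 40 members and the counts of members past 0.32, and the medians and counts that differed are given here. The cause was not tested. A pseudocount of 0.1 TPM gave 2 members higher in Isl1CKO and a median of −0.27 in Pou4f1KO. With 5 TPM the medians against control were −0.13, −0.25 and −0.16 in Isl1CKO, Pou4f1KO and DKO, with 9 lower in Pou4f1KO, 1 higher in DKO, 2 lower in DKO against Isl1CKO, and 2 higher and 0 lower in DKO against Pou4f1KO. A filter of 5 TPM, which leaves out Cdkn2c, gave −0.15 in Isl1CKO, −0.28 in Pou4f1KO, −0.04 for DKO against Isl1CKO, 1 higher in DKO, and 2 higher in DKO against Pou4f1KO. FPKM gave −0.12, −0.30 and −0.16 against control, with 3 lower in Isl1CKO, 19 lower in Pou4f1KO and 1 higher in DKO, and 0.14 with 0 lower for DKO against Pou4f1KO. Median-of-ratios scaling gave −0.12, −0.27 and −0.18 against control, with 3 lower in Isl1CKO and 15 in Pou4f1KO, −0.04 for DKO against Isl1CKO, and 0.11 with 0 lower for DKO against Pou4f1KO. Scaling to the neuron markers gave −0.25, −0.51 and −0.36 against control, with 14, 33 and 24 lower and 1 higher in DKO, −0.10 for DKO against Isl1CKO, and 0.16 with 5 higher and 0 lower for DKO against Pou4f1KO. Leaving haemoglobin, ribosomal protein and Rn45s genes out of the total gave −0.28 with 15 lower in Pou4f1KO, and 0.10 with 0 lower for DKO against Pou4f1KO. Centring on transcript length classes, chosen after the data were seen, gave −0.13 with 3 lower in Isl1CKO, −0.29 with 15 lower in Pou4f1KO, −0.04 for DKO against Isl1CKO, and 0 lower for DKO against Pou4f1KO. Without a filter these values were as in the report. Of 155 ratios of single members and medians by role followed through these settings, 28 were at or past 0.32 in size, and 0 of these changed sign, whereas 20 smaller ones did.

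Depth was not scarce for the members, though Cdkn2c and Cdk6 had a lower read depth than the other members. Without replicates, a ratio of the size seen here cannot be set against the spread between embryos.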
